A study of Mus musculus with 20 samples.

Results

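The epididymal fat of male C57BL/6J mice, a white adipose tissue, was compared between mice fed a high-fat diet (HFD) and mice fed normal chow (NC). All samples of these 2 groups in the series were used, 13 of 20. The study states 7 sequenced mice per group, while the labels give 6 for NC. The 6 NC mice received maintenance feed, starting at 6 weeks of age like the HFD mice, over the same first 14 weeks. Whether they were then also given saline into the stomach is not clear in the sources used here. An effect of that handling therefore cannot be told apart from diet. The 7 HFD mice received a diet that takes most of its energy from fat, from 6 weeks of age for 14 weeks and then for 6 more weeks with saline given into the stomach. The other mice, which received a plant alkaloid extract with the same diet, did not enter any comparison here. Mice were fasted overnight, and the tissue was taken after the fast ended in the morning. Polyadenylated RNA was sequenced, and the measurement was FPKM, the fragments of a gene scaled to its exon length and to the mapped fragments of the library, for 14776 genes. Each of these genes was above 0 FPKM in all 20 mice, so a gene at 0 in any mouse is not covered here. Of the 14776, 14706 were tested, those that averaged 0.1 FPKM or more across the 13 mice. Differences are log2 fold changes of HFD over NC on the log2(FPKM + 1) scale, which understates the change of low genes, and each adjusted p is from limma with Benjamini-Hochberg adjustment over all genes tested. A gene is past the threshold where its adjusted p was under 0.05 and it differed by more than 1.5 on the log2 scale, and is called at the adjusted p alone where no fold limit was used.

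Adipose tissue stores triglyceride in adipocytes, which make up most of its volume, while macrophages, lymphocytes, fibroblast-like progenitors and blood vessel cells lie between them. In obesity, adipocytes of the epididymal depot enlarge and die, and macrophages gather around the remnants, where they take up lipid and degrade it in lysosomes. Adipocytes release hormones, among them leptin and adiponectin, make triglyceride from glucose and fatty acids, and release fatty acids by lipolysis. In whole tissue, fewer cells of a type and less RNA per cell cannot be told apart, and a marker list is described here by the number of its genes that passed the test and by its median log2 fold change, beside a median of -0.04 over all genes tested.

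The 13 libraries held between 13567667 and 19388627 reads on the deposited genes, as recovered from the FPKM values. NC mouse 6 had the fewest reads and stood apart in its makeup. The mean level of 27 adipocyte marker genes, in log2(FPKM + 1), was 3.80 in NC mouse 6 and between 7.41 and 8.67 in the other 5 NC mice. Adipoq, which codes for the adipocyte hormone adiponectin, was at 26.6 FPKM in that mouse and between 859 and 2278 FPKM in the other NC mice. The level of 22 endothelial genes was 1.52 in NC mouse 6 against 3.99 to 5.19 in the others. In the opposite direction, NC mouse 6 had the highest level of 7 genes of epididymis and other epithelium, 7.37, followed by NC mouse 1 at 5.99 and NC mouse 2 at 5.0. NC mice 4 and 5 were at 4.04 and 3.65, NC mouse 3 was at 1.69, and the 7 HFD mice were between 0.75 and 1.22. The summed FPKM of these 7 genes was 40.3 to 3333 in NC and 5.52 to 11.6 in HFD mice. The defining genes Adam7, Crisp1 and Epcam of that list were not analysed here, so it rests on genes such as Cdh1, the epithelial adhesion protein, and Adgrg2, a receptor of the male reproductive ducts. Among HFD mice, mouse 1 had the lowest adipocyte level, 5.68 against 6.39 to 7.67, and the highest macrophage level, 6.56 against 5.57 to 6.23. Counts are therefore also given without NC mouse 6 where they moved by over 1.5 times, and for some lists also without NC mice 1, 2 and 6.

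**Figure D1:**
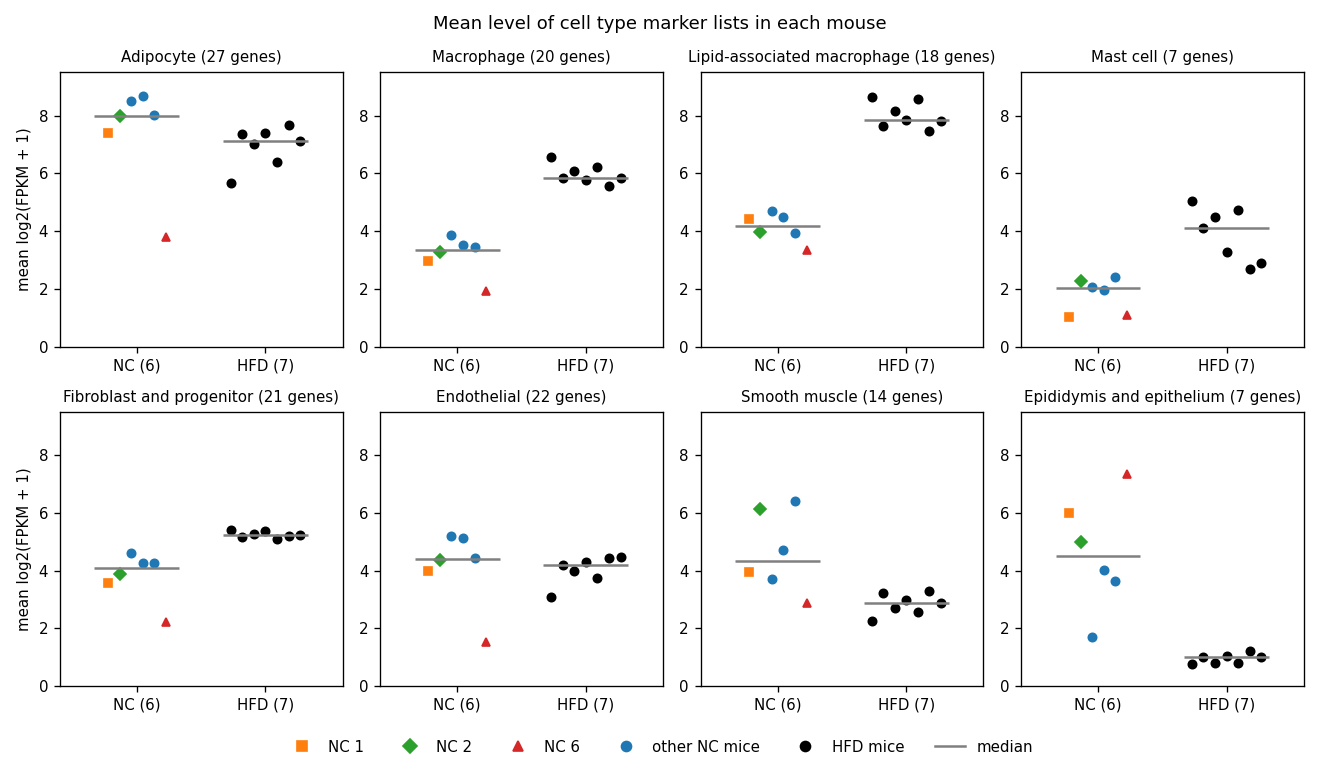
Mean log2(FPKM + 1) of 8 marker lists in each of 6 NC and 7 HFD mice, with the number of genes in brackets and the group median as a line. NC mouse 6 (triangle) lies at 3.80 for adipocyte genes and at 7.37 for epithelial genes, while the macrophage lists do not overlap between the groups.

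Past the threshold, 799 genes were higher (5.43% of those tested) and 373 lower (2.54%) in HFD than in NC mice. At the adjusted p alone, 3091 genes were higher (21%) and 2956 lower (20.1%). Every HFD mouse was above every NC mouse for 1865 genes (12.7%) and below every NC mouse for 1143 genes (7.77%). These shares are the background for the list counts below, and a count near them does not set a list apart. Without NC mouse 6, 3325 genes were higher (22.6%) and 3320 lower (22.6%) of 14697 tested. Of the genes called with all mice, 5671 were called in the same direction without NC mouse 6, 0 in the opposite direction, and 376 were no longer called. A further 974 genes were called only without it, 599 of them lower in HFD mice.

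**Figure D2:**
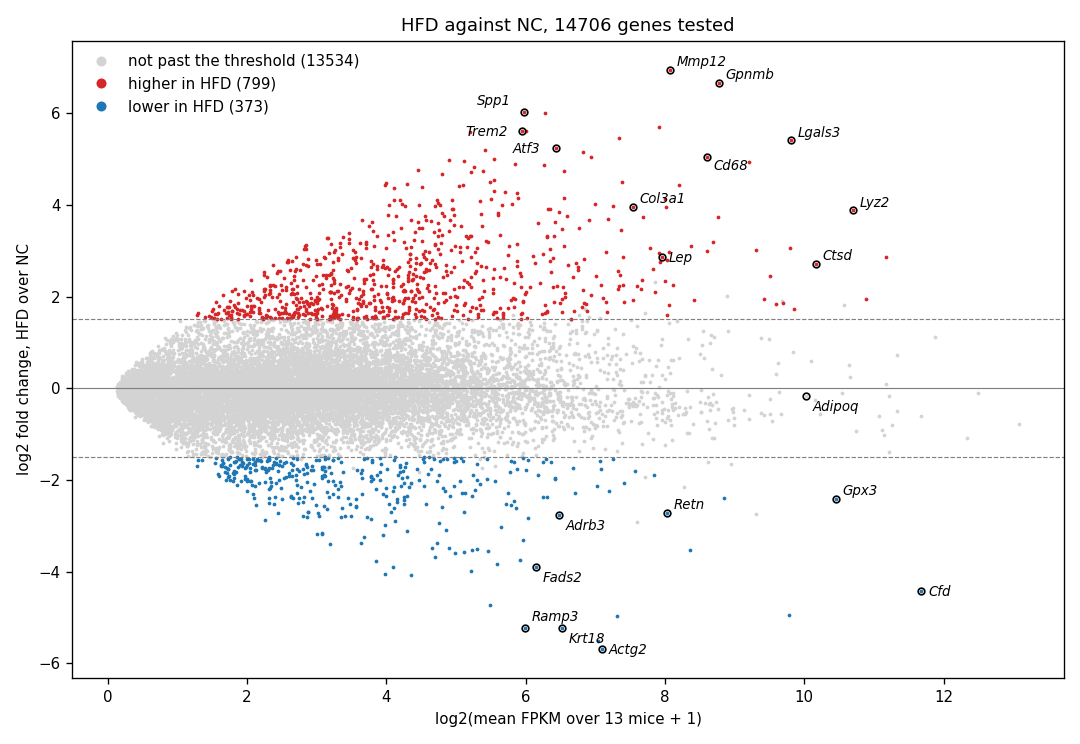
Log2 fold change of HFD over NC against log2 of the mean FPKM over 13 mice plus 1, for 14706 genes, with 799 higher (red) and 373 lower (blue) past the threshold and dashed lines at the fold limit. The largest labelled rises are Mmp12 and Gpnmb, expressed by macrophages, and Cfd is the most abundant gene among the labelled falls.

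The 12 largest rises without overlap between the groups were Mmp12, Gpnmb, Spp1, Adam8, Ctsk, Itgax, Trem2, Tm4sf19, Itgb2, Lgals3, Atf3 and Vsig8. Most of these are known from macrophages that take up lipid, in which Trem2 is the receptor that senses it. Trem2 (GRCm38 chr17:48346401-48354147, + strand) ranged from 0.680 to 2.05 FPKM (median 1.20) in NC mice and from 65.3 to 166 FPKM (median 95.1) in HFD mice (log2 fold change 5.61, SE 0.22, adjusted p = 5.5e-09). Every HFD mouse was thus far above every NC mouse, and Trem2 differed by 5.55 without NC mouse 6. Gpnmb, a membrane glycoprotein of lysosome-rich phagocytes, ranged from 2.35 to 13.6 FPKM (median 6.92) in NC mice and from 411 to 1419.9 FPKM (median 635) in HFD mice (log2 fold change 6.67, SE 0.39, adjusted p = 4.8e-08). Mmp12, the macrophage elastase, ranged from 0.199 to 9.38 FPKM (median 2.15) in NC mice and from 162 to 1299 FPKM (median 252) in HFD mice (log2 fold change 6.95, SE 0.58, adjusted p = 9.4e-07). The spread within HFD was wide for this gene, with HFD mouse 1 at 1299 FPKM and HFD mouse 6 at 162 FPKM. Adam8, a metalloprotease of leukocytes, had medians of 1.01 FPKM in NC and 123 FPKM in HFD mice (6.02, adjusted p = 1.9e-08), and Itgb2, the beta chain of leukocyte integrins, 5.86 FPKM in NC and 211 FPKM in HFD mice (5.47, adjusted p = 9.1e-07). Vsig8 and Tm4sf19, 2 membrane proteins, went from medians of 0.824 and 0.255 FPKM to 72.4 and 62.2.

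The bases just upstream of the start site are shown for Trem2 and Mmp12 and for Ctsd and Lamp1. The latter are members of the lysosome list that is described further on, and the change of Lamp1 itself is not reported here. They were taken from RefSeq for GRCm38.p6, whose table held 13705 promoter windows of the tested genes. Each window runs from 250 bases before to 50 after the start, and the 150 bases before the start are printed 5′ to 3′. The letters GAGGAAG, a core sequence bound by the myeloid factor PU.1, and TCACGTG, a core bound by the lysosomal regulators MITF and TFEB, were searched on both strands, so that CTTCCTC and CACGTGA also count. Capitals mark these letters, and TCACGTG overlaps its own reverse complement where TCACGTGA occurs.
Trem2 (chr17:48346251-48346400, + strand): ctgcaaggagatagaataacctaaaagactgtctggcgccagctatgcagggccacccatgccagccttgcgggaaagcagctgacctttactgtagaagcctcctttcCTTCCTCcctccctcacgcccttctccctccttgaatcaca
Mmp12 (chr9:7344247-7344396, + strand): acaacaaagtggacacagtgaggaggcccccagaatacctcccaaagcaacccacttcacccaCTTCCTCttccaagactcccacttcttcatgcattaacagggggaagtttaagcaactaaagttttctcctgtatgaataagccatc
Ctsd (chr7:142387828-142387977, - strand): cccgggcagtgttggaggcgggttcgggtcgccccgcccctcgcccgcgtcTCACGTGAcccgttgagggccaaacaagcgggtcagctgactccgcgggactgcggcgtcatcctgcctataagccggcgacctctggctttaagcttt
Lamp1 (chr8:13159011-13159160, + strand): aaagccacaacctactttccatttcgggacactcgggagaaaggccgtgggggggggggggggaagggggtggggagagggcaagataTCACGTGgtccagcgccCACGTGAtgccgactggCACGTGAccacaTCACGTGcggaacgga
The letters CTTCCTC began 41 bases before the start of Trem2 and 87 bases before the first start of Mmp12, while the window of a second Mmp12 start, chr9:7347124-7347423, held neither sequence. Lamp1, the main lysosomal membrane protein, held TCACGTG or CACGTGA at 62, 45, 28 and 16 bases before its start, and Ctsd, the protease cathepsin D, at 245, 99 and 98 bases, the first of them outside the printed stretch. GAGGAAG on either strand was in 13.6% of all promoters of tested genes. It was in 25.0% of the 12 of the macrophage list and 35.3% of the 17 of the lipid-associated macrophage list. The lysosome list, whose holders Cd63, Ctsk and Lipa are also in the lipid-associated macrophage list, had 22.5% of 40. The adipocyte list had 16.7% of 24 and the cell cycle list 14.7% of 34. TCACGTG was in 5.74% of all promoters, 27.5% of the lysosome list, 11.8% of the lipid-associated macrophage list and 0 of the macrophage list. The adipocyte list had 4.17% and the cell cycle list 5.88%. Neither sequence was in the 3 promoters of the phagocyte NADPH oxidase list. The 4 genes printed each held a sequence, whereas 6 of 13 lipid-associated macrophage genes with a promoter held GAGGAAG and 11 of 34 lysosome genes TCACGTG. These shares describe letters, not binding, and promoters were matched for 10707 of the 14706 genes.

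Macrophage genes rose as a group. Of 20 tested, 17 were higher, 0 lower and 3 did not pass, with a median log2 fold change of 3.12 (16 higher and 2.94 without NC mouse 6), where 21% of all genes were higher. Adgre1, which codes for the macrophage surface protein F4/80, ranged from 0.615 to 10.6 FPKM (median 6.09) in NC mice and from 139.8 to 258 FPKM (median 215) in HFD mice (log2 fold change 5.16, SE 0.40, adjusted p = 4.9e-07). Cd68, a lysosomal glycoprotein of phagocytes, ranged from 14.4 to 39.1 FPKM (median 16.2) in NC mice and from 438 to 1039 FPKM (median 613) in HFD mice (log2 fold change 5.04, SE 0.26, adjusted p = 2.0e-08). Neither gene overlapped between the groups. Csf1r, the receptor for the macrophage growth factor CSF1, had medians of 16.9 FPKM in NC and 146 FPKM in HFD mice (3.32, adjusted p = 2.1e-05), and its ligand Csf1 4.55 FPKM in NC and 13.9 FPKM in HFD mice (1.45, adjusted p = 7.0e-05). The complement genes C1qa, C1qb and C1qc had log2 fold changes of 2.95, 3.73 and 3.45. The members that did not pass were Cx3cr1 (0.13, adjusted p = 0.59), Clec4n (0.16, adjusted p = 0.75) and Cd86 (0.48, adjusted p = 0.14), a co-stimulatory protein that ranged from 0.225 to 3.03 FPKM (median 1.94) in NC mice and from 1.85 to 4.20 FPKM (median 2.87) in HFD mice. Mertk, a receptor for dying cells, was called with all mice (0.67, adjusted p = 0.031) but not without NC mouse 6 (adjusted p = 0.055).

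In the lipid-associated macrophage list, 17 of 18 genes were higher, with a median of 3.66 (3.18 without NC mouse 6). Spp1, the secreted protein osteopontin, had medians of 0.339 FPKM in NC and 75.8 FPKM in HFD mice and Itgax, the integrin chain CD11c, 1.57 FPKM in NC and 93.4 FPKM in HFD mice (6.03 and 5.62). Lgals3, which codes for galectin-3, rose from 52.0 FPKM in NC mice (median, range 4.84 to 87.4) to 1489 FPKM in HFD mice (median, range 949.6 to 2358) (5.41, adjusted p = 3.6e-06). Cd9, a membrane protein of this macrophage state and of many other cells, rose less (2.03, adjusted p = 8.7e-04) and its groups overlapped. Plin2, which coats lipid droplets in most cell types, ranged from 5.51 to 248 FPKM (median 103) in NC mice and from 483 to 896 FPKM (median 638) in HFD mice (log2 fold change 3.18, SE 0.63, adjusted p = 0.0013). Acp5, an acid phosphatase, was the member that did not pass (0.75, adjusted p = 0.34). Genes of resident perivascular macrophages divided. Mrc1, Folr2, Stab1, Clec10a, Gas6 and Maf were higher, Mrc1 with medians of 8.42 FPKM in NC and 66.5 FPKM in HFD mice (3.20, adjusted p = 1.8e-04) and Folr2 of 1.59 FPKM in NC and 21.9 FPKM in HFD mice (3.18, adjusted p = 2.3e-06). Lyve1 (0.44, adjusted p = 0.57), Cd163 (0.30, adjusted p = 0.70), Fcna, Cbr2, Cd209f, Cd209g, Ednrb and F13a1 did not pass, and the median of the list went from 0.75 to 0.28 without NC mouse 6 and -0.09 without NC mice 1, 2 and 6.

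The enzymes and pumps of the lysosome rose with the macrophage genes. The lysosome list shares members with the lipid-associated macrophage list, among them Cd63, Ctsd, Ctsk and Lipa. Of 45 lysosomal genes, 35 were higher and 0 lower, 27 of them with no overlap, and the median was 1.24 (1.32 without NC mouse 6). Of all genes tested, 21% were higher and 12.7% were higher with no overlap. Ctsd ranged from 238 to 396 FPKM (median 253) in NC mice and from 1351 to 2779 FPKM (median 1782) in HFD mice (log2 fold change 2.72, SE 0.24, adjusted p = 1.4e-06). Psap, the precursor of the lipid-binding saposins, had medians of 541 FPKM in NC and 3199.6 FPKM in HFD mice and was among the most abundant transcripts of the list. Lipa, the acid lipase that frees fatty acids and cholesterol inside lysosomes, rose from 34.3 FPKM in NC mice (median, range 2.80 to 47.1) to 392 FPKM in HFD mice (median, range 263 to 705) (4.14, adjusted p = 2.5e-05). Among subunits of the proton pump, Atp6v0d2, which is enriched in macrophages and osteoclasts, had a log2 fold change of 5.04, while the broadly expressed Atp6v0d1 had 0.51 and Atp6v1a 2.21. Members with values on the other side were Atp6v1g1 (-0.52, adjusted p = 0.34), Neu1 (-0.48, adjusted p = 0.23) and Npc2 (-0.24, adjusted p = 0.69), which did not pass. Hexa, a hexosaminidase subunit, rose (2.36, adjusted p = 1.3e-07).

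The 6 genes of the phagocyte NADPH oxidase, which makes superoxide, were each higher, with a median of 3.37. Cybb, its catalytic subunit, ranged from 0.520 to 6.48 FPKM (median 3.47) in NC mice and from 46.8 to 119 FPKM (median 62.1) in HFD mice (log2 fold change 4.09, SE 0.37, adjusted p = 1.6e-06). Toll-like receptors, which recognise microbial molecules and signal through Myd88 or Ticam1, were higher for 9 of 11 members. Tlr13 had medians of 0.704 FPKM in NC and 35.9 FPKM in HFD mice, Tlr8 0.882 FPKM in NC and 31.4 FPKM in HFD mice, Tlr7 1.29 FPKM in NC and 15.5 FPKM in HFD mice and Tlr1 0.405 FPKM in NC and 8.13 FPKM in HFD mice, with log2 fold changes of 4.67, 4.10, 2.76 and 2.78. Tlr2 (2.07, adjusted p = 1.4e-05), Tlr4 (1.64, adjusted p = 0.0026), Tlr6, Tlr9 and Tlr3 were also higher. Tlr5 (-0.33, adjusted p = 0.13), the receptor for flagellin, and Tlr11 did not pass, and Tlr5 was lower without NC mouse 6 (-0.48, adjusted p = 0.0089). The adaptor Ticam1 was higher (0.95, adjusted p = 0.0052), whereas Myd88 was at 0.21, adjusted p = 0.42.

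Of the MHC class II genes, which present antigen to T cells, 7 of 10 were higher and 0 lower. Of all genes tested, 21% were higher and 20.1% lower. H2-Aa had medians of 122 FPKM in NC and 377 FPKM in HFD mice, and Cd74, the invariant chain, 309 FPKM in NC and 1196 FPKM in HFD mice. The regulator of MHC class II genes, Ciita, rose (1.60, adjusted p = 3.0e-05). H2-Oa, H2-Ob and H2-DMb2 did not pass. Among secreted mediators, 9 of 16 cytokine genes were higher and 0 lower. Tnf, the cytokine TNF-alpha, was low but separated, 0.0326 to 0.266 FPKM (median 0.102) in NC and 0.859 to 3.13 FPKM (median 1.41) in HFD mice (log2 fold change 1.21, SE 0.17, adjusted p = 8.7e-05). Il1rn, the antagonist of the interleukin 1 receptor, had the largest rise of these, from 0.0949 FPKM in NC mice (median, range 0.0372 to 0.292) to 21.3 FPKM in HFD mice (median, range 9.68 to 49.0) (4.47, adjusted p = 2.4e-07). Tgfb1 (1.99, adjusted p = 2.3e-05), Gdf15 (1.96, adjusted p = 0.0042) and Tnfsf12 (2.42, adjusted p = 8.8e-05) were higher too, while Il18 (0.66, adjusted p = 0.067) and Il33 (0.53, adjusted p = 0.24) did not pass. Il4 was at 0.710 to 1.11 FPKM (median 0.971) in NC and 1.25 to 2.59 FPKM (median 2.18) in HFD mice (0.56, adjusted p = 0.0028). Of 20 chemokine ligands, 8 were higher and 2 lower, beside the same shares of all genes. Ccl9 and Ccl6, made by myeloid cells, had medians of 18.8 FPKM in NC and 199.6 FPKM in HFD mice and 57.1 FPKM in NC and 316 FPKM in HFD mice (3.69 and 3.07), and Cxcl16, Ccl4, Pf4, Cxcl14, Cxcl2 and Ccl5 were the other higher members. Ccl27a (-1.13, adjusted p = 3.4e-04) and Ccl25 (-0.27, adjusted p = 0.0034) were lower. Ccl8 (1.25, adjusted p = 0.086), Ccl11 (1.60, adjusted p = 0.070) and Cxcl12 (0.48, adjusted p = 0.52) did not pass, and Ccl11, the eosinophil chemokine, passed without NC mouse 6 (0.87, adjusted p = 0.035). Of 30 genes induced by interferon, 10 were higher, where 21% of all genes were, and 0 lower. Their median was 0.48 (0.30 without NC mouse 6). Oas1a, an antiviral enzyme, had the largest rise of these (2.58, adjusted p = 4.7e-07), whereas Isg15 (-0.41, adjusted p = 0.24) and Ifit3 (0.76, adjusted p = 0.072) did not pass.

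T cell receptor complex genes were low in every mouse, whereas immunoglobulin genes varied widely. Cd3e, a chain of the T cell receptor complex, ranged from 0.152 to 0.760 FPKM (median 0.256) in NC mice and from 0.221 to 0.795 FPKM (median 0.375) in HFD mice (0.09, adjusted p = 0.56), and Cd3d and Trac had 0.25, adjusted p = 0.14 and 0.58, adjusted p = 0.088. Of 19 T cell genes, 5 were higher, where 21% of all genes were. The largest of these was Il7r, with medians of 0.895 FPKM in NC and 39.7 FPKM in HFD mice (4.40, adjusted p = 3.0e-08), far above the levels of the T cell receptor genes. Among natural killer genes, 4 of 8 were higher, all under a log2 fold change of 1, and 1 without NC mice 1 and 6. Cd79a, part of the B cell receptor, was at 0.47, adjusted p = 0.38. The immunoglobulin genes Ighm (2.32, adjusted p = 0.053) and Igkc (2.02, adjusted p = 0.14) did not pass with all mice, with 1.20 to 281 FPKM (median 98.6) in NC and 156 to 632 FPKM (median 317) in HFD mice for Ighm. Without NC mouse 6, in which it was lowest, Ighm passed (1.37, adjusted p = 0.032) and Igkc was at 0.95. Cd22 and Cd37 were the members of the B cell list that rose with all mice (1.90 and 3.18), and Cd37 is also expressed by other leukocytes. The genes Xcr1, Ncr1 and Ms4a1, which define some of these lists, were not analysed here.

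Mast cells are resident granulocytes that store proteases in their granules. The protease genes Cpa3, Cma1, Mcpt4 and Tpsb2 rose together, with log2 fold changes of 3.49, 3.54, 3.77 and 3.82. Mcpt4 ranged from 1.01 to 6.32 FPKM (median 4.08) in NC mice and from 14.5 to 213 FPKM (median 64.1) in HFD mice (log2 fold change 3.77, SE 0.61, adjusted p = 3.1e-04), with no overlap between the groups. Within HFD the mean level of the mast cell list was 2.68 in mouse 6, 2.90 in mouse 7 and between 3.29 and 5.03 in the other 5 mice, against 1.01 to 2.41 in NC mice. Kit, the stem cell factor receptor, did not pass with all mice (0.38, adjusted p = 0.19) and passed without NC mouse 6 (0.57, adjusted p = 0.017). Gata2, a transcription factor of mast cells that adipocyte progenitors also express, was lower (-1.13, adjusted p = 0.025). Among neutrophil genes, Csf3r (1.37, adjusted p = 1.9e-05), S100a8 (1.18, adjusted p = 0.046) and Il1r2 were higher and Mmp9 was lower (-1.40, adjusted p = 0.011), and S100a8 did not pass without NC mouse 6 (adjusted p = 0.077). Ly6g was not analysed here. Ear2, a ribonuclease and the remaining gene of the eosinophil list, ranged from 0.286 to 26.8 FPKM (median 9.33) in NC mice and from 27.3 to 56.1 FPKM (median 30.5) in HFD mice (2.13, adjusted p = 0.0066). Of 8 monocyte genes, 3 were higher and 1 lower, where 21% and 20.1% of all genes were. Ccr2, the receptor that draws monocytes from blood, was higher (1.09, adjusted p = 0.019), Ly6c2 was at 0.50, adjusted p = 0.067, and Plac8, which epithelial cells also express, was lower (-3.30, adjusted p = 0.0059), with NC mouse 3 at 2.07 FPKM and the other NC mice between 49.3 and 294. In the dendritic cell list, 5 of 13 genes were higher and 2 lower (6 and 5 without NC mouse 6), beside the same shares of all genes. Irf8 (2.28, adjusted p = 1.1e-07) and Flt3 (0.33, adjusted p = 0.0053) rose, Irf4 (-2.30, adjusted p = 0.0056) and Cd24a (-3.48, adjusted p = 7.3e-05) fell, and Cd209a was lower only without NC mouse 6 (-0.89, adjusted p = 0.018). Irf4 is also expressed by adipocytes, and Cd24a by epithelial cells.

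Of the remaining cell types, mesothelial genes divided. Krt18 and Krt19 (-3.55, adjusted p = 6.1e-04), keratins shared with other epithelia, fell, while Nkain4, Lrrn4, Cldn15 and Slpi did not pass, and the defining genes Msln, Upk3b and Wt1 were not analysed here. Of 7 Schwann cell genes, those that were lower included Cdh19 and Egfl8, while Mbp (0.97, adjusted p = 0.027) and Pmp22 (2.43, adjusted p = 7.1e-05) were higher, and Sox10 was not analysed here. Among 4 lymphatic genes, Reln was lower (-0.37, adjusted p = 0.0028), Pdpn, which other stromal cells also express, was higher without NC mouse 6 (1.16, adjusted p = 0.0041), and Prox1 was not analysed here. Of 14 listed genes of brown and beige adipocytes, 8 were tested, and Ucp1, Dio2 and Elovl3 were not analysed here. Pank1 (-1.92, adjusted p = 0.0024) and Ppargc1a (-0.40, adjusted p = 0.032), a coactivator of mitochondrial genes, were lower. Prdm16 (0.06, adjusted p = 0.85), Cidea (0.18, adjusted p = 0.67) and Cox8b did not pass. Tnni2 was the skeletal muscle gene of 3 that rose (0.46, adjusted p = 0.0040), from a median under 1 FPKM.

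**Figure D3:**
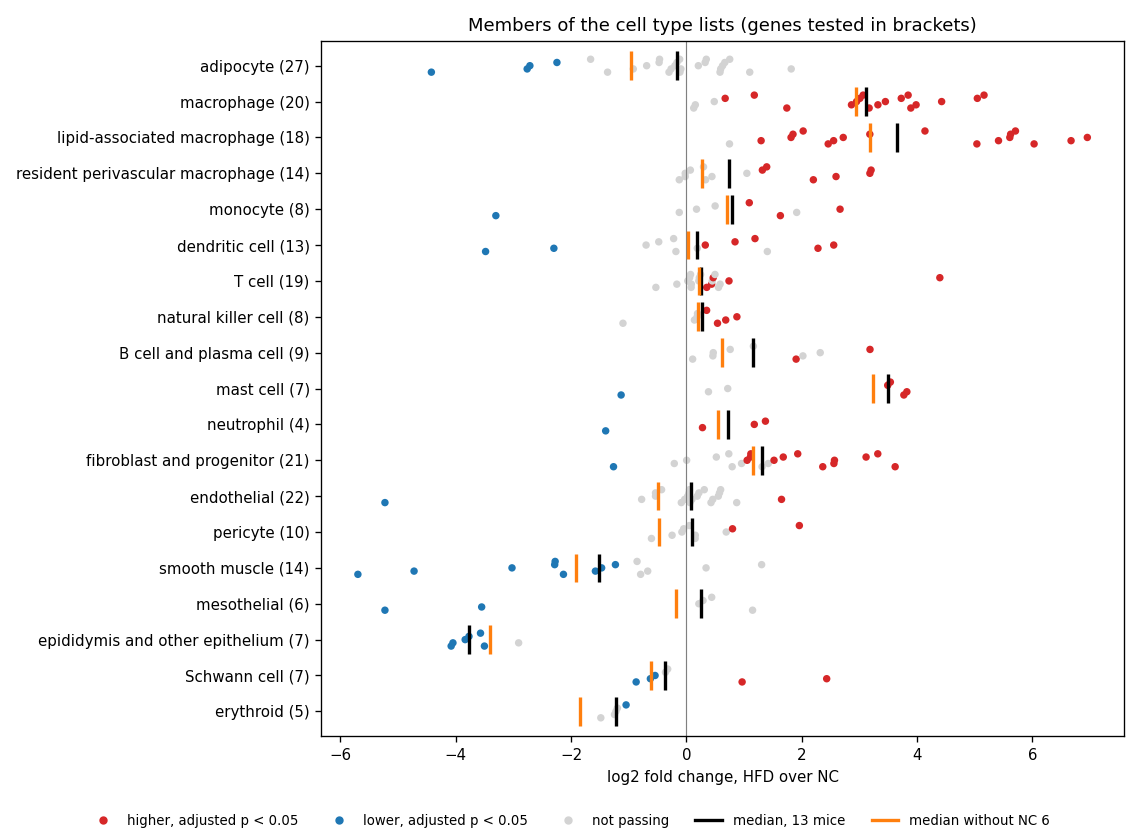
Log2 fold change of HFD over NC for each gene of 19 cell type lists, coloured by direction where the adjusted p was under 0.05, with the list median over all 13 mice (black) and without NC mouse 6 (orange). The medians of the macrophage and lipid-associated macrophage lists lie to the right of 0 and those of the epithelial and smooth muscle lists to the left, while the adipocyte median moves from -0.16 to -0.96 when NC mouse 6 is left out.

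Genes of cell division rose from low levels. Of 36 tested, 30 were higher and 0 lower, with 23 free of overlap and a median of 1.16, which was 1.16 without NC mouse 6. The shares over all genes were 21% higher and 12.7% higher without overlap. Mki67, the proliferation marker, ranged from 0.401 to 1.36 FPKM (median 0.621) in NC mice and from 4.65 to 9.65 FPKM (median 6.63) in HFD mice (log2 fold change 2.15, SE 0.18, adjusted p = 7.4e-07), and Top2a, the topoisomerase of dividing cells, from 0.445 to 1.32 FPKM (median 0.626) in NC mice and from 4.14 to 7.06 FPKM (median 6.11) in HFD mice (1.97, adjusted p = 3.2e-07). The replication gene Mcm6 had medians of 2.60 FPKM in NC and 13.4 FPKM in HFD mice. The G1 cyclins Ccnd1 (0.10, adjusted p = 0.78), Ccnd2 (0.57, adjusted p = 0.41) and Ccnd3 (-0.41, adjusted p = 0.066) did not pass, nor did the inhibitor Cdkn1a (0.58, adjusted p = 0.20), while Cdkn2a, a senescence-linked inhibitor, was higher (1.26, adjusted p = 4.8e-04).

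Extracellular matrix genes were higher in HFD mice. Of 30 collagen genes, 20 were higher and 5 lower, with a median of 1.26 (1.12 without NC mouse 6). The fibrillar collagens led. Col3a1 ranged from 0.762 to 53.8 FPKM (median 28.0) in NC mice and from 198 to 423 FPKM (median 317) in HFD mice (log2 fold change 3.96, SE 0.63, adjusted p = 2.6e-04) and differed by 3.26 without NC mouse 6, in which it was at 0.762 FPKM. Col1a1 had medians of 14.4 FPKM in NC and 172 FPKM in HFD mice (3.76, adjusted p = 9.1e-05), Col6a3, whose product surrounds adipocytes, 6.30 FPKM in NC and 34.2 FPKM in HFD mice (2.72, adjusted p = 2.0e-04), and the basement membrane gene Col4a1 90.0 FPKM in NC and 231 FPKM in HFD mice (1.87, adjusted p = 0.040). The lower members were Col23a1 (-1.08, adjusted p = 0.043), Col4a3, Col4a4, Col4a6 and Col7a1, and Col4a4 for example had medians of 0.818 FPKM in NC and 0.151 FPKM in HFD mice. In the matrix turnover list, 21 of 31 genes were higher. Timp1, an inhibitor of metalloproteases, ranged from 0.237 to 5.10 FPKM (median 1.53) in NC mice and from 11.6 to 101 FPKM (median 50.1) in HFD mice (log2 fold change 4.0, SE 0.46, adjusted p = 1.7e-05). Mmp2 (3.61, adjusted p = 4.3e-05), Mmp19 (4.13, adjusted p = 4.5e-06) and Mmp14 (2.08, adjusted p = 5.5e-06) were higher, and so were the crosslinking enzymes Loxl1 (2.74, adjusted p = 1.9e-04) and Loxl2 (2.15, adjusted p = 4.8e-04), while Lox was at 0.97, adjusted p = 0.22. Timp4, an inhibitor made by adipocytes, was lower without NC mouse 6 (-1.83, adjusted p = 9.6e-04) and did not pass with it (-1.09, adjusted p = 0.22).

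Fibroblast and progenitor genes rose in part. Of 21, 12 were higher and 1 lower, with a median of 1.31. Pdgfra, the receptor that marks adipocyte progenitors, ranged from 3.74 to 32.5 FPKM (median 5.69) in NC mice and from 14.6 to 21.2 FPKM (median 19.1) in HFD mice (log2 fold change 1.11, SE 0.37, adjusted p = 0.027). Without NC mouse 6, Pdgfra differed by 1.495 (adjusted p = 5.6e-05), although that mouse had the lowest NC level of this list, 2.23. The largest rises were those of Lum (3.62, adjusted p = 3.3e-04), a collagen-binding proteoglycan, Cd248 (3.32, adjusted p = 5.7e-05) and Fbn1 (3.12, adjusted p = 1.4e-04), the microfibril protein. Dpp4, a peptidase of the most immature progenitors, fell, from 9.01 FPKM in NC mice (median, range 6.26 to 14.9) to 3.18 FPKM in HFD mice (median, range 2.44 to 4.66) (-1.26, adjusted p = 2.2e-04), whereas Pi16, a marker of the same cells, rose (2.37, adjusted p = 1.5e-04). Dcn, a matrix proteoglycan, was at 1.42, adjusted p = 0.14.

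Few endothelial genes passed with all mice, 1 higher and 1 lower of 22 and a median of 0.08. Without NC mouse 6, in which they were low, 5 were lower and the median was -0.49, and 12 were lower with a median of -0.86 without NC mice 1, 2 and 6. Pecam1 and Cdh5, the adhesion proteins of vessel walls, were at 0.59, adjusted p = 0.51 and 0.87, adjusted p = 0.35 with all mice. Gpihbp1, which holds lipoprotein lipase on capillaries, ranged from 3.25 to 139.8 FPKM (median 67.1) in NC mice and from 14.6 to 53.0 FPKM (median 36.7) in HFD mice and was lower without NC mouse 6 (-1.24, adjusted p = 0.0067), and Sox17 was lower likewise (-1.04, adjusted p = 0.031). Aplnr, the receptor for apelin, was the member that rose (1.65, adjusted p = 0.0061). Ramp3, a receptor-modifying protein and the member that fell (-5.23, adjusted p = 6.3e-04), was at 0.993 FPKM in NC mouse 3 and between 16.5 and 543 in the other NC mice. Among 10 pericyte genes, Pdgfrb (1.96, adjusted p = 0.0057) and Cspg4 (0.80, adjusted p = 0.0067) rose, while Kcnj8, Higd1b and Cox4i2 were lower without NC mouse 6, Kcnj8 with -1.08 (adjusted p = 0.0058). Of 5 erythroid genes, Alas2, the enzyme of haem synthesis in red cell precursors, was lower with all mice (-1.05, adjusted p = 0.036), and the other 4, which are haemoglobin genes, also without NC mouse 6, with Hbb-bs at medians of 407 FPKM in NC and 124 FPKM in HFD mice. The haemoglobin genes have near-identical copies, so their single values are uncertain.

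Smooth muscle genes were lower in HFD mice, 9 of 14 with a median of -1.52 (12 and -1.91 without NC mouse 6). Myh11, the smooth muscle myosin, ranged from 5.82 to 266 FPKM (median 38.6) in NC mice and from 1.81 to 8.82 FPKM (median 4.66) in HFD mice (log2 fold change -3.02, SE 0.75, adjusted p = 0.0057). NC mice 2 and 5 were high, at 233 and 266 FPKM, and NC mice 1, 3 and 6 were at 23.0, 18.9 and 5.82. Actg2, an actin of visceral smooth muscle, had the largest fall among genes without overlap (-5.70, adjusted p = 4.8e-04), from 166 FPKM in NC mice (median, range 5.84 to 1015) to 0.482 FPKM in HFD mice (median, range 0.183 to 3.22). Acta2, which pericytes also express, was at -0.79, adjusted p = 0.38 and passed without NC mouse 6 (-1.45, adjusted p = 0.020).

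The 12 largest falls without overlap were Actg2, Ramp3, Krt18, Cnn1, Stard10, Fads2, Spint2, Cyb561, Zfp185, Hoxb6, Clu and Adgrg2, of which Krt18, Spint2 and Adgrg2 are known from epithelia and Actg2 and Cnn1 from smooth muscle. In the epithelial list 6 of 7 genes were lower with a median of -3.77, and 6 with a median of -2.44 without NC mice 1, 2 and 6. Cdh1 was at 0.0136 FPKM in NC mouse 3, which is within the HFD range of 0.0123 to 0.184 FPKM (median 0.0670), and between 13 and 71.1 in the other 5 NC mice. Krt18, a keratin of simple epithelia and mesothelium, was at 5.85 FPKM in NC mouse 3, between 53.7 and 454 in the other NC mice and between 0.706 and 3.23 in HFD mice. Of the 373 genes that were lower past the threshold, 243 (65.1%) had their lowest NC value in NC mouse 3, the NC mouse with the lowest epithelial level, against 2808 (19.1%) of all genes tested. Of the 799 higher genes, 549 (68.7%) had their lowest NC value in NC mouse 6, against 4695 (31.9%) of all genes tested. The part of neighbouring tissue in the falls was not tested, and the FPKM in NC mouse 3 is given beside some of the falls of metabolic genes.

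How many adipocyte genes passed depended on NC mouse 6. With all mice, 4 of 27 were lower, where 20.1% of all genes were, 0 higher and the median was -0.16. Without it, 14 were lower and 1 higher with a median of -0.96, and 15 were lower with a median of -1.23 without NC mice 1, 2 and 6. The 4 that fell in both cases were Cfd, Adrb3, Retn and Adig. Cfd, which codes for adipsin, a complement protease secreted by adipocytes (GRCm38 chr10:79890853-79892655, + strand), ranged from 228 to 13266 FPKM (median 6569.9) in NC mice and from 47.9 to 388 FPKM (median 262) in HFD mice (log2 fold change -4.42, SE 0.84, adjusted p = 9.5e-04). NC mouse 6, at 228 FPKM, lay within the HFD range, and the other 5 NC mice were between 4730.5 and 13266 FPKM, and the difference without it was -5.26 (adjusted p = 2.2e-06). Adrb3, the beta-3 adrenergic receptor through which noradrenaline starts lipolysis, ranged from 10.7 to 387 FPKM (median 175) in NC mice and from 2.98 to 38.7 FPKM (median 23.8) in HFD mice (log2 fold change -2.76, SE 0.79, adjusted p = 0.013), and the difference was -3.40 without NC mouse 6, which lay within the HFD range. Retn, the hormone resistin, had medians of 567 FPKM in NC and 55.8 FPKM in HFD mice (-2.71, adjusted p = 0.0096). NC mouse 3 was not low for these genes, with 13266 FPKM of Cfd and 387 of Adrb3.

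The defining adipocyte genes moved less. Adipoq (GRCm38 chr16:23146536-23158028, + strand) ranged from 26.6 to 2278 FPKM (median 1482) in NC mice and from 222 to 1158 FPKM (median 819) in HFD mice, with log2 fold change -0.16, SE 0.89, adjusted p = 0.90 over all mice, and was lower without NC mouse 6 (-1.13, adjusted p = 0.043). Plin1, which coats the adipocyte lipid droplet, was at 0.35, adjusted p = 0.76 (-0.55, adjusted p = 0.27 without NC mouse 6), and Lipe, hormone-sensitive lipase, at -0.30, adjusted p = 0.73 (-0.94, adjusted p = 0.054). Pparg, the master regulator of adipocytes, was lower without that mouse (-0.86, adjusted p = 0.018), while Cebpa, its partner, was at 0.16 (adjusted p = 0.62). Cd36, the fatty acid transporter of adipocytes and macrophages, was the member higher without NC mouse 6 (0.86, adjusted p = 0.042).

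Of 18 adipokine genes, 3 were higher and 6 lower, where 21% and 20.1% of all genes were, and 8 were lower without NC mouse 6. Lep, which codes for leptin (GRCm38 chr6:29060220-29073877, + strand), ranged from 1.17 to 189 FPKM (median 65.3) in NC mice and from 125 to 695 FPKM (median 339) in HFD mice (log2 fold change 2.85, SE 0.84, adjusted p = 0.016). NC mouse 6 held the lowest value, 1.17 FPKM, and HFD mouse 1 the lowest of its group, 125, below NC mice 4 and 5. Without NC mouse 6 the difference was 1.96 (adjusted p = 0.0028). Sfrp5, a secreted Wnt inhibitor (2.45, adjusted p = 0.028), and Angpt2, a vessel growth factor (1.57, adjusted p = 0.0010), rose as well. Agt, angiotensinogen, fell from 97.6 FPKM in NC mice (median, range 30.5 to 171) to 17.6 FPKM in HFD mice (median, range 7.62 to 24.8) (-2.46, adjusted p = 1.5e-04), and Gpx3, the plasma glutathione peroxidase (-2.41, adjusted p = 0.0040), Nrg4 (-1.73, adjusted p = 0.011) and Vegfa (-1.46, adjusted p = 0.018) also fell. Rbp4, the retinol carrier, was lower without NC mouse 6 (-2.17, adjusted p = 0.0013) and did not pass with it (-1.36, adjusted p = 0.18). Of 23 adipogenic transcription factors, 7 were lower and 1 higher (9 and 0 without NC mouse 6), where 20.1% and 21% of all genes were. Klf15 (-2.17, adjusted p = 1.7e-04) fell, at 40.6 FPKM in NC mouse 3 and 2.74 to 15.4 FPKM (median 4.46) in HFD mice. Gata3 fell too (-3.17, adjusted p = 5.2e-04), but was at 0.360 FPKM in NC mouse 3 and at least 8.31 in the other NC mice.

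**Figure D4:**
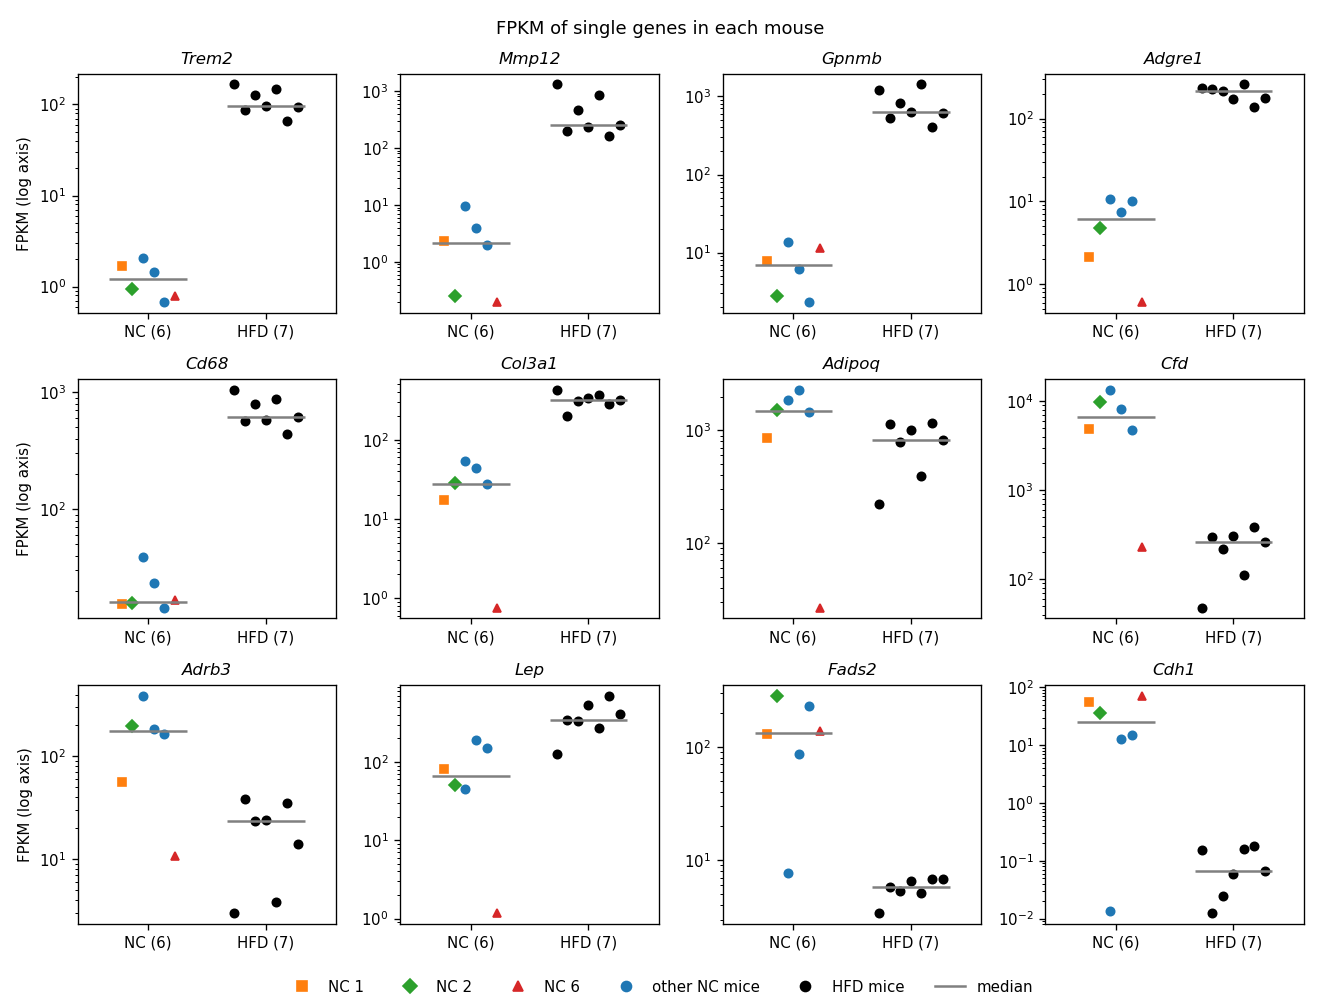
FPKM of 12 genes in each of 6 NC and 7 HFD mice on a log axis, with group medians as lines. The macrophage genes Trem2, Gpnmb and Adgre1 do not overlap, NC mouse 6 (triangle) is lowest of its group for Adipoq, Cfd, Adrb3 and Lep, and Fads2 and Cdh1 have 1 NC mouse (NC 3) far below the others.

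Lipid synthesis genes were lower in part. Of 20 genes of fatty acid synthesis, 6 were lower and 0 higher with a median of -0.79, and 9 were lower without NC mouse 6, where 20.1% and 22.6% of all genes were lower. Without NC mice 1, 2 and 6, 8 were lower and the median was -0.25. The mean level of the list was lowest among NC mice in mouse 3, at 4.90. The core enzymes Fasn (-0.06, adjusted p = 0.93) and Acly (-0.79, adjusted p = 0.12) did not pass. Acacb, the acetyl-CoA carboxylase isoform at mitochondria, fell (-1.73, adjusted p = 0.026), and Acaca, its cytosolic counterpart, fell without NC mouse 6 (-1.13, adjusted p = 0.0077). Scd1, the stearoyl-CoA desaturase, ranged from 159 to 5951 FPKM (median 3802) in NC mice and from 461 to 2940.5 FPKM (median 1404) in HFD mice and was lower without NC mouse 6 (-1.56, adjusted p = 0.018). The desaturases Fads2 and Fads1 fell (-3.90, adjusted p = 2.8e-04 and -1.77, adjusted p = 5.1e-04), with NC mouse 3 at 7.64 and 30.7 FPKM and the other NC mice between 85.9 and 281 and between 53.7 and 142 FPKM. Elovl6, an elongase, fell too (-1.72, adjusted p = 0.015), with 1.42 FPKM in NC mouse 3 and 1.51 to 3.42 FPKM (median 2.10) in HFD mice, and did not pass without NC mice 1, 2 and 6 (adjusted p = 0.12). In triglyceride synthesis, 3 of 12 genes were lower with all mice and 7 without NC mouse 6, beside the same shares of all genes. Gpam, the first enzyme of the pathway, fell (-1.36, adjusted p = 0.026), and Pck1, which makes its glycerol backbone, was at -1.66, adjusted p = 0.11 with all mice and -2.47 (adjusted p = 5.2e-04) without NC mouse 6. Agpat2 (0.02, adjusted p = 0.98) and Dgat2 (1.22, adjusted p = 0.051) did not pass, and Lpgat1 was higher (1.23, adjusted p = 0.013).

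Among lipolysis and droplet genes, those that were lower included Adrb3, and Plin2, Plin3 (0.66, adjusted p = 0.046) and Hilpda (1.51, adjusted p = 0.0020) were higher. Pnpla2, the first triglyceride lipase, ranged from 75.1 to 1264 FPKM (median 749) in NC mice and from 169 to 587 FPKM (median 513) in HFD mice, with -0.46, adjusted p = 0.55 over all mice and -1.03 (adjusted p = 0.036) without NC mouse 6, and 9 of 22 genes were lower then, against 2 with all mice. Uptake genes were mixed, 3 higher and 4 lower of 18 (5 and 5 without NC mouse 6), where 21% and 20.1% of all genes were. Lrp1 (2.78, adjusted p = 9.7e-04) and Fabp5 (2.46, adjusted p = 9.2e-05) were higher, Acsl1 (-1.18, adjusted p = 0.012) and Slc27a1 (-0.85, adjusted p = 0.048) were lower and Lpl was at 1.10, adjusted p = 0.22. Fatty acid oxidation was mixed too, 2 higher and 5 lower of 21, beside the same shares of all genes. Cpt1a, which admits fatty acids to mitochondria, was higher (0.96, adjusted p = 0.019), although NC mouse 6, at 107 FPKM, lay above every HFD mouse (59.4 to 80.1 FPKM (median 68.8)) and the other NC mice were between 23.4 and 39.6. Hadha was higher (0.81, adjusted p = 3.9e-05), Eci1 (-1.09, adjusted p = 0.0031), Eci2, Echs1 and Etfb were lower, and their regulator Ppara was lower (-0.67, adjusted p = 0.010), from 1.28 FPKM in NC mice (median, range 0.275 to 2.04) to 0.364 FPKM in HFD mice (median, range 0.135 to 0.852). In peroxisomes 8 of 18 genes were lower, among them Crot (-1.46, adjusted p = 0.016) and Ehhadh (-1.34, adjusted p = 0.0057), and 12 without NC mouse 6.

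Genes that break down branched-chain amino acids were lower in HFD mice, 13 of 23 with 0 higher and a median of -0.58 (15 and -0.72 without NC mouse 6). Aldh6a1, of the valine pathway, ranged from 48.9 to 125 FPKM (median 110.3) in NC mice and from 13.8 to 47.2 FPKM (median 29.7) in HFD mice (log2 fold change -1.77, SE 0.30, adjusted p = 4.3e-04), with NC mouse 3 at 125 FPKM and NC mouse 6 lowest at 48.9. Bckdhb, a subunit of the branched-chain ketoacid dehydrogenase, fell (-1.31, adjusted p = 0.010), whereas its partner Bckdha (-0.41, adjusted p = 0.39) and the aminotransferase Bcat2 (-0.28, adjusted p = 0.35) did not pass. Of 25 genes of insulin signalling, 4 were higher and 1 lower (3 and 5 without NC mouse 6), where 21% and 20.1% of all genes were. Insr, the insulin receptor, was lower (-1.05, adjusted p = 0.0028) and Akt1, Inppl1, Grb14 and Ptpn1, a phosphatase that acts on the receptor (1.12, adjusted p = 2.9e-04), were higher. Irs1 (-0.16, adjusted p = 0.65) and Slc2a4, the insulin-dependent glucose transporter (-0.12, adjusted p = 0.88), did not pass, and Irs2, Akt2, Grb10 and Pde3b were lower without NC mouse 6, Akt2 with -0.92 (adjusted p = 0.0011).

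Transcripts of the respiratory chain were lower. Of 75 nuclear genes, 42 were lower and 0 higher, 22 without overlap where 7.77% of all genes were, and the median was -0.61. The folds were small, from Cox6c (-1.45, adjusted p = 1.9e-04) to members that did not pass, such as Ndufs1 (0.18, adjusted p = 0.41) and Atp5b (-0.11, adjusted p = 0.75). Without NC mouse 6, 46 were lower (median -0.56), and 36 (median -0.42) without NC mice 1, 2 and 6. The mean level of the list was 6.43 in NC mouse 1 and 5.64 in NC mouse 3, against 5.24 to 5.64 in HFD mice. The 22 mitochondrially coded genes covered here took 9.05% to 17.6% of all FPKM in NC mice (median 9.84%). In HFD mice they took 4.36% to 8.26% (median 6.37%), and the groups did not overlap. The means were 11.3% ± 3.22 (SD, n = 6) and 6.27% ± 1.29 (SD, n = 7), a difference of -5.0 percentage points (p = 5.8e-04 in a two-sided exact permutation test, which over 1716 splits can give none smaller). NC mouse 1 was the highest, and without it the difference was -3.73 percentage points. Of the 12 mitochondrially coded genes of the respiratory chain list, 6 were lower. Among them, mt-Cytb had -1.08, adjusted p = 0.044 and mt-Nd4 -1.03, adjusted p = 0.027. With medians of 10256 FPKM in NC and 6554 FPKM in HFD mice, mt-Co1 had -0.77, adjusted p = 0.16. The much lower levels of mt-Co2, mt-Co3 and mt-Atp6, with medians from 65.7 to 127 FPKM in NC mice, are uncertain, since these genes have near-identical nuclear copies and the counting of such reads is not given in the sources used here. In the mitochondrial ribosome 29 of 77 genes were lower and 1 higher, and 18 were lower without NC mice 1, 2 and 6. In the citrate cycle 4 of 25 were lower, where 20.1% of all genes were, and 9 without NC mouse 6, where 22.6% were. Sdha was among the 4 (-0.50, adjusted p = 0.028), and Cs (0.08, adjusted p = 0.74) was among those that did not pass.

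Glycolytic genes moved in both directions. Of 23, 8 were higher and 6 lower, where 21% and 20.1% of all genes were. The myeloid hexokinase Hk3 rose from 0.597 FPKM in NC mice (median, range 0.130 to 1.45) to 47.3 FPKM in HFD mice (median, range 30.6 to 92.0) (4.98, adjusted p = 2.1e-08), and Hk2, the hexokinase of insulin-responsive tissues, fell (-1.54, adjusted p = 5.0e-04), with NC mouse 3 at 7.99 FPKM and 3.94 to 8.66 FPKM (median 5.16) in HFD mice. Pkm (1.36, adjusted p = 0.0028), Pfkp (1.32, adjusted p = 0.0019), Pgk1, Eno1 and Pgam1 were higher, while Ldhb, the lactate dehydrogenase chain of oxidative cells, was lower (-2.62, adjusted p = 2.6e-05). Slc2a3, a glucose transporter, fell as well (-2.39, adjusted p = 2.4e-05). NC mouse 3 had the lowest NC values of both, 38.3 and 3.52 FPKM, above HFD values of up to 19.2 and 1.29 FPKM. In the pentose phosphate pathway, which supplies NADPH, Pgd (1.24, adjusted p = 2.0e-04) and G6pdx (0.66, adjusted p = 0.011) were higher and Rpia was lower (-0.34, adjusted p = 0.019) of 8 genes, and 2 were lower without NC mouse 6.

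Cholesterol genes differed by role. Synthesis genes had 2 higher and 4 lower of 23 (3 and 4 without NC mouse 6), where 21% and 20.1% of all genes were. Their median turned from -0.20 to 0.11 without NC mouse 6, the highest mouse for the list. Storage and export genes had 8 of 17 higher and 1 lower (7 and 2 without NC mouse 6). Soat1, which esterifies cholesterol for storage, rose (2.28, adjusted p = 7.3e-06), as did the exporter Abcg1 (1.63, adjusted p = 0.0030), the ester hydrolase Nceh1 (3.80, adjusted p = 2.6e-07) and Pltp (3.96, adjusted p = 4.8e-05). Abca1, another exporter, was higher with all mice (0.62, adjusted p = 0.046) and did not pass without NC mouse 6 (adjusted p = 0.082). Apoe was abundant in both groups, with medians of 1712 FPKM in NC and 1732 FPKM in HFD mice (0.25, adjusted p = 0.68), and Apoc1 fell (-2.10, adjusted p = 9.7e-05).

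Iron and haem genes rose for 11 of 20 members. Hmox1, which breaks down haem, ranged from 3.06 to 23.5 FPKM (median 11.2) in NC mice and from 74.3 to 351 FPKM (median 105) in HFD mice (log2 fold change 3.49, SE 0.46, adjusted p = 5.7e-05), and Slc11a1, an iron pump of phagocyte vesicles, rose too (4.0, adjusted p = 3.6e-06). The ferritin chains Ftl1 (1.95, adjusted p = 2.6e-04) and Fth1 (1.11, adjusted p = 0.027) were higher, whereas Tfrc (0.27, adjusted p = 0.36) and the exporter Slc40a1 (0.55, adjusted p = 0.17) did not pass, and Cp, the ferroxidase ceruloplasmin, was lower (-0.95, adjusted p = 8.4e-04). Of 36 antioxidant genes, 13 were lower and 3 higher, where 20.1% and 21% of all genes were. Without NC mice 1, 2 and 6, 9 were lower. Gsta3 (-2.0, adjusted p = 6.3e-05) and Gsta4 (-2.99, adjusted p = 1.5e-06), glutathione transferases, were lower with NC mouse 3 at 17.4 and 11.9 FPKM, above HFD values of up to 6.52 and 4.58. Nqo1 was lower (-2.14, adjusted p = 0.010), with 142 FPKM in NC mouse 1 and 6.61 to 32.4 in the other NC mice. Genes of the glutathione transferase families are similar in sequence, so their single values are uncertain. In the integrated stress response, 3 of 24 genes were higher and 6 lower, where 21% and 20.1% of all genes were. Atf3, a stress-induced factor of macrophages and other cells, rose from 2.86 FPKM in NC mice (median, range 1.96 to 6.01) to 138 FPKM in HFD mice (median, range 97.1 to 219.5) (5.24, adjusted p = 1.1e-08), whereas Atf4 (-0.29, adjusted p = 0.27) and Trib3 (0.06, adjusted p = 0.91) did not pass, Ddit3 was slightly higher (0.42, adjusted p = 0.043), and Asns (-1.5, adjusted p = 0.0044) and Phgdh (-1.37, adjusted p = 0.012), enzymes of amino acid synthesis, were lower. Asns was at 77.1 FPKM in NC mouse 3 and 10.2 to 12.6 FPKM (median 11.3) in HFD mice. Of 19 clock genes, 1 was higher and 3 were lower (3 and 3 without NC mouse 6), beside the same shares of all genes. Those that fell included Hlf and Cry1, Npas2 rose, and Arntl (0.39, adjusted p = 0.12), Per1 (-0.25, adjusted p = 0.46) and Nr1d1 (0.04, adjusted p = 0.95) did not pass.

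**Figure D5:**
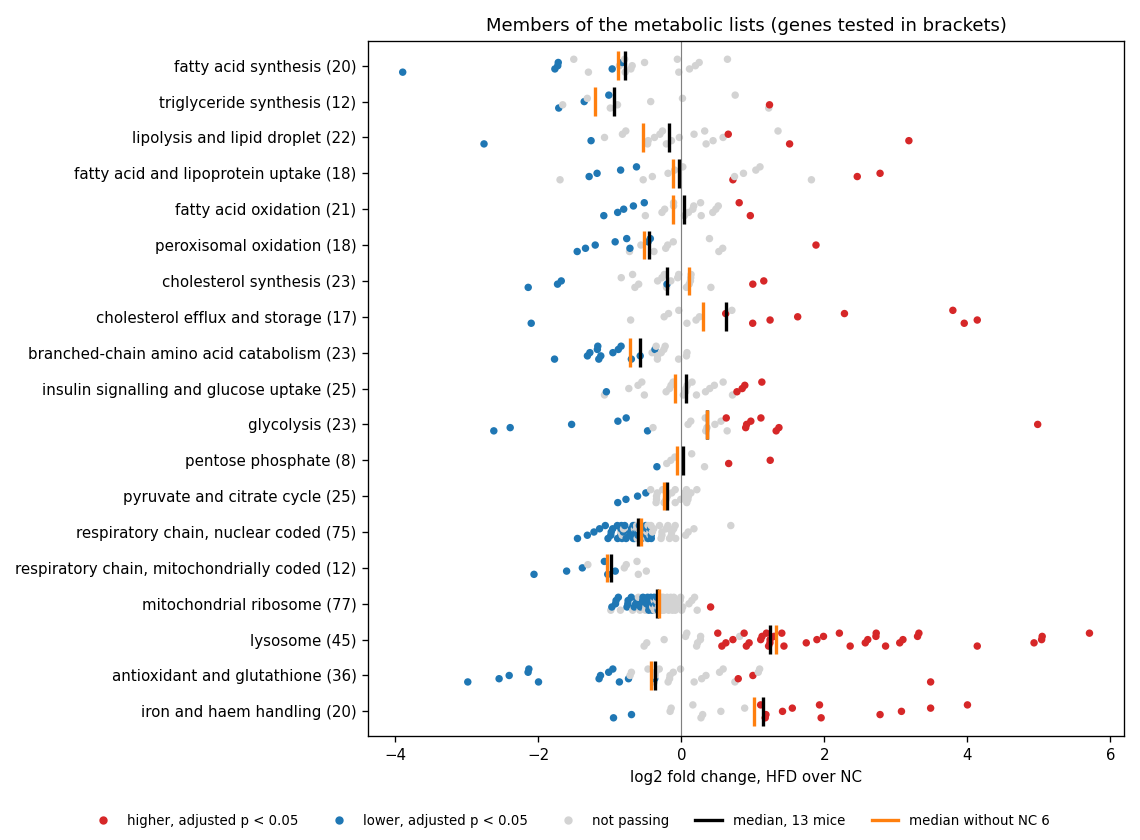
Log2 fold change of HFD over NC for each gene of 19 metabolic lists, coloured by direction where the adjusted p was under 0.05, with list medians over all 13 mice (black) and without NC mouse 6 (orange). The median of the lysosomal list lies to the right of 0, and those of the respiratory chain and of branched-chain amino acid catabolism lie to the left.

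Of 26 genes listed as named by the study of these mice, 22 were covered here. Of these 22, 13 were higher and 1 lower with all mice. Without NC mouse 6, 4 were lower, when Acaca, Adipoq and Pnpla2 also passed. These genes were chosen by the study on samples that include these, so the count is not independent evidence of a direction.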

How the data were processed

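RNA of epididymal fat was sequenced from 20 mice of 3 groups, of which the 6 NC and 7 HFD mice were compared. Groups and replicate numbers were taken from the sample labels. The authors mapped paired-end reads with HISAT2 (genome GRCm38), and reads were counted by featureCounts 1.5.0-p3 per the submitters' processing notes. Their deposited table holds FPKM values of 14776 genes, each above 0 in all 20 mice, and marker lists were covered unevenly. For example, it held 7 of 33 listed genes of epididymis and other epithelium and 1 of 8 listed eosinophil genes. Whether counting used strand and how reads with several matches were treated is not given in the sources used here. A gene's values in a mouse were whole multiples of 1 read for 95.9% to 96.3% of values under 1000 reads (tolerance 0.01 reads), with exon lengths from GENCODE release M21, and these recovered reads gave the depth, 13567667 to 19388627 per mouse. At that depth 2531 genes had fewer than 10 reads in a compared mouse. No pair of mice had identical values, and the smallest correlation between mice was 0.667.

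From the FPKM values, genes averaging 0.1 FPKM or more over the 13 mice were tested with limma 3.58.1 in R 4.3.3 (linear model, empirical Bayes with a variance trend) on log2(FPKM + 1). The threshold was a Benjamini-Hochberg adjusted p under 0.05 with a log2 fold change above 1.5 in size. The study fitted read counts with DESeq2, for which the deposited unit does not serve. The script was tested on simulated data first. The share of mitochondrially coded FPKM was compared with an exact permutation test over mice. The p-values treat the mice as independent. The labels do not give cages or batches, so whether a cage or batch coincided with diet could not be checked.

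The comparison and the gene lists were chosen with earlier results of these data known. Genes named are those the study names, the 12 largest rises and falls without overlap, the defining genes of each list, up to 5 further members in each direction by adjusted p, members against their list's direction, every member of lists of up to 12, and members whose call changed without NC mouse 6. Acp5, Apoe, Atp6v0d1, Atp6v0d2, Atp6v1a, Atp6v1g1, C1qa, C1qb, C1qc, Ccnd1, Ccnd2, Ccnd3, Cdkn1a, Cdkn2a, Clec4n, Col4a1, Crot, Cx3cr1, Fth1, Ftl1, Il18, Il33, Loxl1, Loxl2, Neu1, Npc2 and Psap fall outside that rule and were chosen after their values were seen, as were the 4 promoters. Some genes that the rule names are not reported here. Alternatives were other pseudocounts, filters and fold limits, 3 other scalings, array weights, robust variances, a rank test, voom on the recovered reads, a replicate block, all 3 groups in 1 fit and each mouse left out. Leaving out NC mice 1 and 6, or 1, 2 and 6, was chosen after seeing the data.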

Additional observations from a re-analysis of the deposited data

Results flagged for a closer look

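In 204 checks of the spread within a group, 29 had a mouse that stood far from the rest by Dixon's criterion, where chance gives about 1 in 20. Of these, 20 were NC mouse 6. Values below are mean levels of a list, or of a single gene, in log2(FPKM + 1), with the range of the other mice of the group.

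NC mouse 6 was lowest for the lists of adipocyte (3.798, others 7.407 to 8.671), endothelial (1.522, others 3.986 to 5.186) and pericyte genes (0.8782, others 3.181 to 4.191). It was also lowest for genes of triglyceride synthesis (3.513, others 5.089 to 5.925), lipolysis and lipid droplets (2.98, others 5.266 to 6.282) and fatty acid and lipoprotein uptake (4.051, others 5.398 to 5.894). The same held for peroxisomal oxidation (4.139, others 5.047 to 5.373), cholesterol efflux and storage (3.779, others 4.646 to 5.006), and pyruvate and the citrate cycle (4.518, others 5.104 to 5.371). Inflammatory cytokines (1.651, others 2.135 to 2.413), collagens (0.8963, others 2.194 to 2.711), adipokines (3.268, others 6.137 to 6.811) and iron and haem handling (3.128, others 4.106 to 4.561) were lowest in it too. Among single genes it was lowest for Adipoq (4.786), Angpt2 (0.02658), Ctsk (0.825), Lep (1.115) and Lipe (3.678), and highest for Adgrg2 (8.719, others 2.741 to 4.953) and Cpt1a (6.753, others 4.609 to 5.345).

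HFD mouse 1 was highest for the eosinophil list, which is the gene Ear2 (5.834, others 4.822 to 5.22), and for chemokine ligands (3.945, others 3.191 to 3.359), and lowest for pericyte genes (2.85, others 3.401 to 3.808) and for uptake genes (5.35, others 5.61 to 5.805). HFD mouse 4 was highest for nuclear genes of the respiratory chain (5.645, others 5.24 to 5.414) and HFD mouse 5 for Angpt2 (3.705, others 2.874 to 3.221). NC mouse 1 had the highest share of FPKM on mitochondrially coded genes (17.63%, others 9.046% to 11.53%). NC mouse 3 was highest for Atf3 (2.81, others 1.564 to 2.027) and lowest for Fads2 (3.111, others 6.441 to 8.14).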

How the results depend on the processing

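The counts past the threshold, 799 higher and 373 lower, became 1226 and 810 with a pseudocount of 0.1, 1356 and 939 with 0.01, 1351 and 888 with voom on the recovered reads, and 2218 and 1866 with a fold change of 1.5 as the limit. Leaving out 1 mouse at a time gave 708 to 874 higher and 303 to 476 lower genes past the threshold, with 303 without NC mouse 1 and 476 without NC mouse 3, and 2772 to 3325 higher and 2465 to 3320 lower at the adjusted p alone. The difference in the mitochondrial share ran from -5.44 to -3.73 percentage points, and was -2.42 percentage points for the share of recovered reads. Under median-ratio scaling 800 genes were higher and 367 lower, under quantile normalization 744 and 395, under rescaling without mitochondrial genes 778 and 376, and by the exact rank test 790 and 275. Without NC mice 1, 2 and 6 there were 641 and 298. With the replicate number as a block there were 776 and 341 (2421 and 2003 at the adjusted p alone). The numbers were not treated as pairing the mice, since the correlation of deviations between mice of the same number ran from -0.28 to 0.30, and no NC mouse correlated best with the HFD mouse of its own number. Among named genes, 4 turned direction with a value that passed the test. The log2 fold change of Esam, an endothelial adhesion protein, ran from -0.60 without NC mouse 6 to 0.28 without NC mouse 3, and was -0.73 without NC mice 1 and 6 and -0.87 without NC mice 1, 2 and 6. Under these last choices that of Abcc9, a pericyte channel subunit, was -0.78 and -0.98 and that of Nr1d1, the clock repressor, -0.63 and -0.67, and that of Rgs5, another pericyte gene, was -1.15 without NC mice 1, 2 and 6. A change of sign without passing on either side was more frequent. It was found for 21 of 488 named genes without NC mouse 6, among them Plin1 and Pecam1. Over the alternatives other than leaving out a mouse it was found for 103 of 7768 values, against 7111 that kept their direction and side of the test, 290 that newly passed and 257 that no longer passed. Depth limits the 2531 genes with fewer than 10 reads in a compared mouse. The causes of these changes were not tested.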
